A study of Homo sapiens with 15 samples.

Results

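The ERK feedback genes are a set of 10 genes whose products restrain or carry out signalling through the RAS to ERK kinase cascade. They were chosen by symbol and comprise 3 dual-specificity phosphatase genes (DUSP4, DUSP5 and DUSP6), 3 Sprouty genes (SPRY1, SPRY2 and SPRY4), 2 Spred genes (SPRED1 and SPRED2) and 2 ETS transcription factor genes (ETV4 and ETV5), out of 60664 Ensembl gene IDs counted. RNA sequencing was done on T47D, an established luminal breast cancer line that carries the oestrogen receptor, and on a derivative that had become resistant to 4-OHT (4-hydroxytamoxifen), which the body forms from tamoxifen and which blocks the oestrogen receptor. Resistant cells (TR) received both drugs (TR combination), 5 µM erdafitinib (TR erdafitinib), 1 µM 4-OHT (TR 4-OHT) or 0.05% DMSO (TR vehicle) for 120 h, and parental cells (PAR) received DMSO only (PAR vehicle). Erdafitinib blocks the kinase activity of the FGFRs, the receptors for fibroblast growth factors. There were 3 libraries per group, so 12 came from TR cells and 3 from PAR cells. Before treatment all cells spent 48 h in medium with 2% charcoal-stripped serum. TR cells had been grown in 2% stripped serum with 1 µM 4-OHT and PAR cells in 5% ordinary serum without it. Growth history and resistance therefore cannot be told apart in their comparison. Insulin is listed at 8 µg/mL for all libraries. The labels do not say whether the resistant line is 1 clone, nor whether replicates came from separate cultures or days, so p-values measure the spread between these libraries, which may be technical.

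When growth factor receptors such as the FGFRs are activated, RAS, RAF, MEK and ERK are switched on in turn, and active ERK drives transcription of its own inhibitors. DUSP6 removes the activating phosphates from ERK in the cytoplasm, while DUSP4 and DUSP5 do so in the nucleus, DUSP4 also acting on other MAP kinases. Sprouty proteins dampen the signal between receptor and RAF, and Spred proteins bring the RAS-inactivating protein neurofibromin to the membrane. ETV4 and ETV5 belong to the PEA3 group of ETS factors, which FGF signalling induces in many tissues. The RNA levels of these genes are often read as a measure of ERK output.

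Library totals ranged from 6946684 counts (PAR vehicle 2) to 28717380 (TR erdafitinib 2), and TR 4-OHT 2 held 8990899. Levels are in CPM, counts relative to the library total after TMM scaling (edgeR's correction for library composition). The level given by 3 counts was 0.0983 to 0.476 CPM, depending on the library. Mitochondrial genes held 14.5 to 25.7% of counts. All 8 luminal epithelial markers examined (ESR1, GATA3, FOXA1, KRT8, KRT18, KRT19, EPCAM and CDH1) averaged at least 1 CPM in every group. Of 14 markers of leukocytes, endothelium and fibroblasts, COL1A1 alone reached 1 CPM in any group, and CD3E and COL1A2 had 0 counts in all groups; the 14 summed to 12.4 to 36.5 CPM in TR vehicle and 11.9 to 29.1 CPM in PAR vehicle. All 10 feedback genes passed the filter on low counts, but SPRY4, ETV4 and ETV5 did so through TR libraries only, so the filter itself favoured a difference from PAR cells for these 3.

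DUSP4 was by far the most abundant of the 10 transcripts. Per kilobase of exon it stood at 17.7 ± 1.96 CPM per kb in TR vehicle and 22.4 ± 4.16 CPM per kb in PAR vehicle (mean ± SD, n = 3 each, as for the values that follow). SPRED2 (5.93 ± 0.392 CPM per kb in TR vehicle, 4.06 ± 0.761 in PAR vehicle) and SPRY2 (5.64 ± 0.385 in TR vehicle, 2.49 ± 0.604 in PAR vehicle) came next in resistant cells, and their TR spreads overlapped. SPRED1 stood at 2.485 ± 0.838 CPM per kb in TR vehicle, against 0.740 ± 0.160 in PAR vehicle. DUSP5 stood at 1.85 ± 0.243 CPM per kb in TR vehicle and 3.08 ± 0.254 in PAR vehicle. The remaining genes were below 1 CPM per kb in TR vehicle: SPRY1 (0.896 ± 0.272) and DUSP6 (0.880 ± 0.0855) were within their spread of each other, as were ETV5 (0.681 ± 0.210) and SPRY4 (0.552 ± 0.0252), and ETV4 was lowest at 0.0304 ± 0.0265. The order differed in parental cells, where DUSP5 and DUSP6 (2.66 ± 0.634 CPM per kb in PAR vehicle) followed SPRED2, DUSP6 and SPRY2 being within their spread of each other, and SPRY4 and ETV4 had no count.

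**Figure D1:**
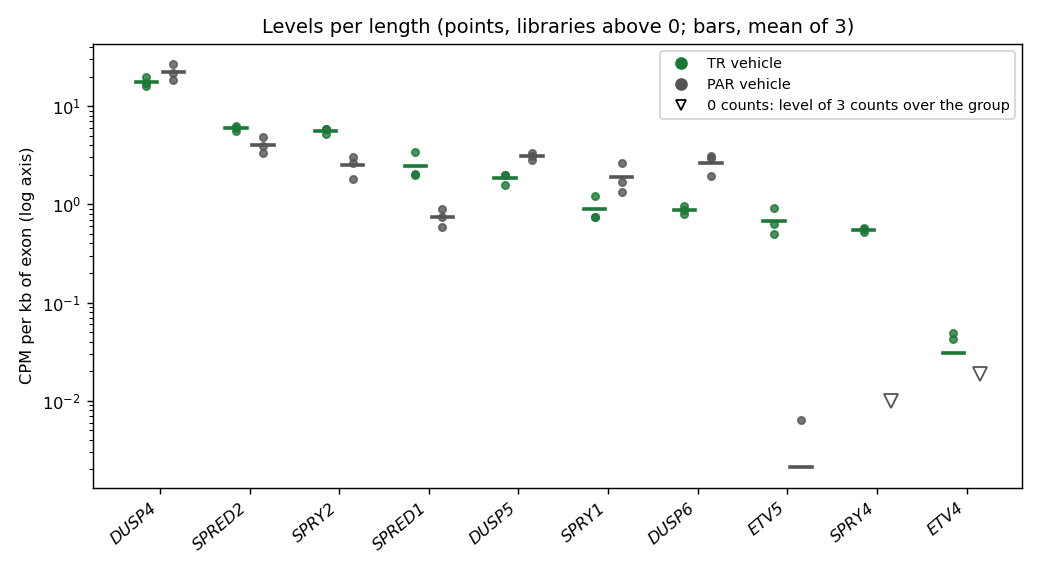
RNA level per kilobase of exon (CPM per kb, log axis) of the 10 ERK feedback genes in TR vehicle (green, left) and PAR vehicle (grey, right); points are libraries above 0, bars are means of 3 libraries and open triangles mark the level that 3 counts over the group would give where the group had 0 counts. DUSP4 is highest in both, and SPRY4 and ETV4 have no count in PAR vehicle.

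Set against PAR vehicle, TR vehicle shows which arms of the feedback system differ in the resistant line. Both Spred genes, SPRY2, SPRY4 and ETV5 were higher in resistant cells, while DUSP5 and DUSP6 were lower. In the edgeR quasi-likelihood test, adjusted over 16210 genes at a threshold of 0.05, 5 of the 10 genes rose and 2 fell, against 35.9% of all genes called in either direction (19.9% higher, 16% lower). Among those that rose, SPRY4 and ETV5 passed the low-count filter through TR libraries only. Of the 7 genes with more than 3 counts in PAR vehicle, 3 rose and 2 fell. The median log2 fold change of the 10 was 0.85, or 0.70 with the genes near 0 in PAR set at their bound or count ratio, against 0.07 over all genes. The groups did not overlap for 8 of the 10, or 6 of the 7 with more than 3 counts in PAR vehicle, against 41% of all genes. The shares over all genes include genes near 0 in PAR. The 10 genes were also chosen with earlier results of these data known, so these counts cannot show an excess.

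Among the phosphatases, DUSP6 (ENSG00000139318, chromosome 12, 89347235 to 89352501, minus strand, GRCh38) had 3.40, 3.07 and 3.73 CPM in TR vehicle, against 11.9, 11.4 and 7.45 CPM in PAR vehicle. Every resistant library lay below every parental one. It fell by 1.59 (SE 0.30) on the log2 scale (adjusted p = 0.000917). The call was kept under all 24 alternatives tallied for it, the test against a 1.5-fold change not among them. All 12 TR libraries, on any treatment, stayed between 1.75 and 3.92 CPM (median 3.41).

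DUSP5 (ENSG00000138166, chromosome 10, 110497907 to 110511533) had 3.97, 5.01 and 5.06 CPM in TR vehicle, against 7.13, 8.41 and 7.85 CPM in PAR vehicle. These groups did not overlap, and DUSP5 fell by 0.73 (SE 0.23) on the log2 scale (adjusted p = 0.0209). The call was lost without TR vehicle 1 (adjusted p = 0.0680), without a filter on low counts (0.203) and with only these 6 libraries fitted (0.127). DUSP4 (ENSG00000120875, chromosome 8, 29333064 to 29350684) had 145, 117 and 125 CPM in TR vehicle, against 195, 159 and 135 CPM in PAR vehicle. The libraries overlapped and DUSP4 did not pass (log2 fold change -0.33, SE 0.16, adjusted p = 0.127). It did with the main axis of within-group variation as a covariate (-0.34, adjusted p = 0.0212). That axis was computed from these same libraries and takes up their within-group spread, so calls gained with it are not separate support.

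**Figure D2:**
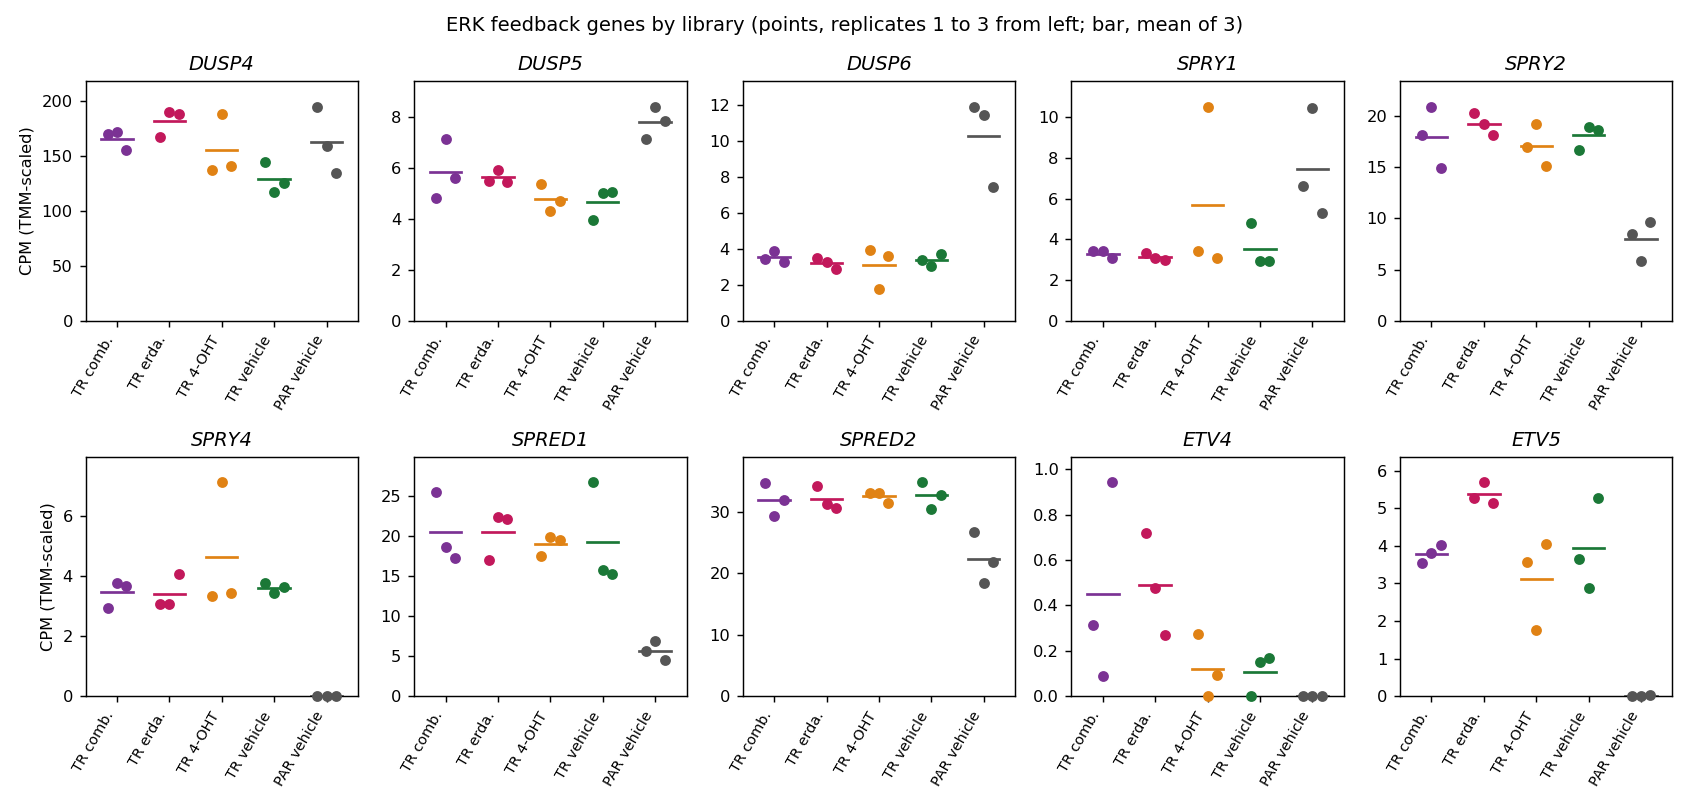
CPM (linear axis from 0) of each ERK feedback gene in every library, in TR combination, TR erdafitinib, TR 4-OHT, TR vehicle and PAR vehicle from left to right; points are replicates 1 to 3 and bars are means. DUSP6 is at 3.92 CPM or less in all TR libraries and at 7.45 CPM or more in PAR, SPRY2, SPRY4, SPRED1, SPRED2 and ETV5 are higher in TR, and no gene steps down in the erdafitinib groups.

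Of the Sprouty genes, SPRY2 (ENSG00000136158, chromosome 13, 80335976 to 80341126) had 16.7, 19.0 and 18.7 CPM in TR vehicle, against 8.47, 5.87 and 9.67 CPM in PAR vehicle. It rose by 1.16 (SE 0.21) on the log2 scale (adjusted p = 0.000566), with no overlap. SPRY4 (ENSG00000187678, chromosome 5, 142310427 to 142326455) had 3.76, 3.44 and 3.66 CPM in TR vehicle, against 0 counts in each of the 3 PAR vehicle libraries. Set against 3 counts over the whole parental group, it was at least 55.0-fold higher in TR vehicle (272 counts, adjusted p = 1.42e-06). SPRY4 passed the low-count filter through TR libraries only, so this p-value cannot serve as support for the difference.

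SPRY1 (ENSG00000164056, chromosome 4, 123396795 to 123403760) had 4.79, 2.92 and 2.94 CPM in TR vehicle, against 6.62, 10.5 and 5.31 CPM in PAR vehicle. The groups did not overlap, but the difference did not pass (log2 fold change -1.06, SE 0.43; adjusted p = 0.0680). It passed without PAR vehicle 3 (adjusted p = 0.0487), TR vehicle 1 (0.0428) or TR 4-OHT 2 (0.0122), the last a shallow library in which SPRY1 stood at 10.5 CPM, against 2.92 to 4.79 CPM in the other 11 TR libraries. SPRY1 also passed in the DESeq2 Wald test (-1.07, adjusted p = 0.0367), which called 6330 genes against 5817 in the main fit. The remaining passes were without the 2 shallowest libraries (0.0392) and with the within-group axis (0.00618), which is not separate support. These were 6 passes over 15 alternatives that left out 1 library and 9 others. Without PAR vehicle 2 the SPRY1 estimate was -0.74 (adjusted p = 0.233), and over all libraries left out in turn the adjusted p ran from 0.0122 to 0.233.

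SPRED1 (ENSG00000166068, chromosome 15, 38252836 to 38357249) had 26.8, 15.7 and 15.3 CPM in TR vehicle, against 5.70, 6.99 and 4.51 CPM in PAR vehicle. It rose by 1.77 (SE 0.26) on the log2 scale (adjusted p = 0.000132), and the lowest of all 12 TR libraries (15.3 CPM) was above the highest parental one. Within groups SPRED1 moved with the main axis of library-to-library variation (Pearson correlation 0.915). What that axis reflects was not tested. TR vehicle 1, the highest library for SPRED1, had 22.6% mitochondrial counts, against 18.6 and 15.6% in TR vehicle 2 and 3. With that axis, computed from these same libraries, as a covariate the SPRED1 rise was 1.71 (adjusted p = 5.64e-08). SPRED2 (ENSG00000198369, chromosome 2, 65310851 to 65432637) had 34.7, 30.4 and 32.8 CPM in TR vehicle, against 26.8, 18.4 and 21.8 CPM in PAR vehicle. It rose less, by 0.54 (SE 0.16; adjusted p = 0.0134), without overlap, and missed the threshold with only these 6 libraries fitted (adjusted p = 0.155).

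ETV5 (ENSG00000244405, chromosome 3, 186046314 to 186110318) had 3.66, 2.88 and 5.26 CPM in TR vehicle, against 0, 0 and 0.0364 CPM in PAR vehicle, where a single read pair was counted in 3 libraries. The ratio of counts was 183, with an exact 95% counting interval of 32.6 to 7257 that covers counting error only (adjusted p = 6.74e-07). ETV5 also passed the low-count filter through TR libraries only, so its p-value cannot serve as support either. ETV4 (ENSG00000175832, chromosome 17, 43527844 to 43579620) was close to undetected, at 0, 0.150 and 0.171 CPM in TR vehicle (9 counts in all), against 0 counts in PAR vehicle. It was at least 1.82-fold higher on the same floor and was not called (adjusted p = 0.143). ETV4 was called with the within-group axis as a covariate (adjusted p = 0.0188), which is not separate support.

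**Figure D3:**
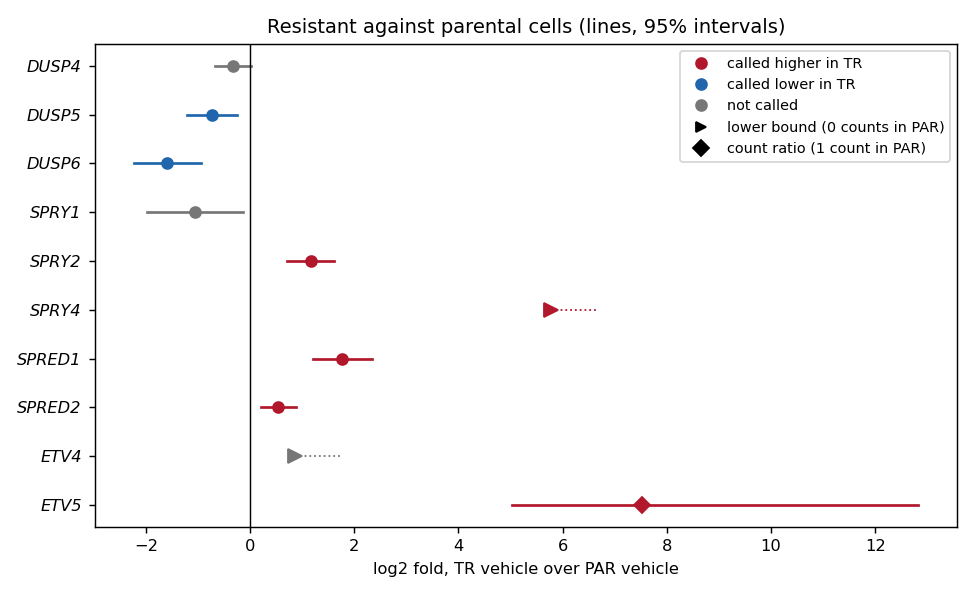
Log2 fold of TR vehicle over PAR vehicle for the 10 ERK feedback genes with 95% intervals (circles and lines); triangles are lower bounds for SPRY4 and ETV4, which had 0 counts in PAR, and the diamond is the count ratio of ETV5 with its counting interval. DUSP5 and DUSP6 lie left of 0, and SPRY2, SPRY4, SPRED1, SPRED2 and ETV5 lie right of it.

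The proximal promoters of 2 risers and of the clearest faller are shown because these genes moved in opposite directions and their RefSeq start sites (GRCh38.p14) coincide with the ends of the gene models that were counted. Each sequence is the 250 bases before the start site, 5′ to 3′ along the gene. Matches to the 5 motifs searched are in capitals; all matches in these 3 windows were SP1 GC boxes, and the DUSP6 window held none. SPRY2 is at chr13:80341127-80341376 (minus strand), SPRED1 at chr15:38252586-38252835 (plus strand) and DUSP6 at chr12:89352502-89352751 (minus strand), where the opposite strand carries an exon of the antisense gene ENSG00000274021, which strand-specific counting kept apart.
SPRY2: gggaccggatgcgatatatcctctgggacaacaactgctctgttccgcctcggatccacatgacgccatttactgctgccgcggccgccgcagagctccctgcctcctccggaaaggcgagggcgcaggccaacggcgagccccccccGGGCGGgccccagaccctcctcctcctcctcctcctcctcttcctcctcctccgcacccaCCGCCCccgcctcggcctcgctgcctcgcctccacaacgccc
SPRED1: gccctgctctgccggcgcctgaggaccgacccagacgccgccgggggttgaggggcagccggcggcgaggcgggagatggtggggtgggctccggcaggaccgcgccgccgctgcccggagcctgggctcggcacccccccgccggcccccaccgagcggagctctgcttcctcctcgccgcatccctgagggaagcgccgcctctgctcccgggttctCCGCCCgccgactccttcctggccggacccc
DUSP6: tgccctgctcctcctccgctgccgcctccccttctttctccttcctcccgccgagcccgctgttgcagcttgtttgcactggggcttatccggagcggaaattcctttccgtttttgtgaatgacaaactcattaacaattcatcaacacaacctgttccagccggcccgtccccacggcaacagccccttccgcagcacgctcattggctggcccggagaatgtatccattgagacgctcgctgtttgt
The SPRY2 window was 70.4% GC, the SPRED1 window 78.4% and the DUSP6 window 57.2%, against a median of 58% over 35116 windows of the same length.

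RefSeq windows were matched for 6 of the 10 genes (DUSP6, SPRY1, SPRY2, SPRY4, SPRED1 and SPRED2; 10 windows in all), and both strands were searched. The GC box (GGGCGG) occurred in 4 of the 10 windows, 1 each of SPRY1, SPRY2, SPRY4 and SPRED1, against 42.6% of all windows. SPRED2, which rose, had no GC box in its windows. SPRY1, with a lower estimate that was not called, had 2 in 1 window. The ETS motif (CCGGAAG) occurred in 1 window, of SPRY1, 67 bases before the start, against 8.52% of all windows. The AP-1 motif (TGANTCA), the cAMP response element (TGACGTC) and the CArG box of serum response factor were in none of the 10, against 6.57%, 3.12% and 1.16% of all windows. A match describes letters in the window only, and no match says nothing of sites elsewhere.

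Erdafitinib was compared with no erdafitinib in resistant cells, alone and on top of 4-OHT, to see whether transcripts driven by ERK moved when the FGFRs were inhibited. No feedback gene passed in any of these comparisons, and 6 of the 10 had a higher estimate with the drug alone. Alone, 0 of 10 genes were called, against 0.0925% of all genes (0.0432% higher, 0.0494% lower). Of the 10, 1 had an unadjusted p under 0.05, against 700 of all 16210 genes. The DESeq2 Wald test called 0 of the 10, against 87 of 16208 genes. On top of 4-OHT, 0 of 10 were called, against 0.642% of all genes (0.296% higher, 0.345% lower). There 0 of the 10 had an unadjusted p under 0.05, against 1405 of all genes, and DESeq2 called 0, against 288. With both pairs pooled, 6 libraries against 6, 0 of 10 were called, against 1.71% of all genes (0.777% higher, 0.938% lower). Pooled, 2 of the 10 had an unadjusted p under 0.05, against 1897 of all genes, and DESeq2 called 0, against 580. No feedback gene separated all 6 libraries with the drug from all 6 without it, as 3.38% of all genes did. The pooled median log2 fold change was 0.09 over the 10 genes and -0.01 over all genes. The pooled 95% intervals, not adjusted for the number of genes, lay above a 2-fold fall for 9 of the 10 genes, SPRY1 being the exception, and above a 1.5-fold fall for 8, SPRY1 and SPRY4 being the exceptions.

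DUSP6 had 3.51, 3.27 and 2.90 CPM on erdafitinib, against 3.40, 3.07 and 3.73 CPM on vehicle. It had 3.43, 3.90 and 3.25 CPM on the combination, against 3.92, 1.75 and 3.62 CPM on 4-OHT. The groups overlapped in both pairs, and the pooled log2 fold change was 0.04 (95% interval -0.41 to 0.49; adjusted p = 0.978). The estimate took the other sign in 3 of 24 alternatives, without a call in any.

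DUSP4 had 168, 190 and 188 CPM on erdafitinib, against 145, 117 and 125 CPM on vehicle. All 3 erdafitinib libraries were above all 3 vehicle libraries, a separation that 11.6% of all genes showed, and the log2 fold change was 0.49 (SE 0.16), which did not pass (adjusted p = 0.656). With the combination DUSP4 had 170, 172 and 155 CPM, against 137, 188 and 141 CPM with 4-OHT, and these overlapped (log2 fold change 0.09, SE 0.16; adjusted p = 0.977). The pooled log2 fold change was 0.29 (95% interval 0.05 to 0.54; adjusted p = 0.301). With the within-group axis as a covariate, DUSP4 was called both alone (0.50, adjusted p = 0.0374) and pooled (0.30, adjusted p = 0.0265). The estimates hardly changed, and because the axis takes up spread of these same libraries, these calls are not separate support.

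DUSP5 had 5.51, 5.92 and 5.47 CPM on erdafitinib, against 3.97, 5.01 and 5.06 CPM on vehicle, also without overlap. It did not pass alone (log2 fold change 0.27, SE 0.22; adjusted p = 1) or pooled (0.27, SE 0.16; adjusted p = 0.579).

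ETV4 was the gene with the largest estimate. It had 0.721, 0.477 and 0.268 CPM on erdafitinib (41 counts), against 0, 0.150 and 0.171 CPM on vehicle (9 counts). On the combination it had 0.315, 0.0908 and 0.942 CPM (32 counts), against 0.275, 0 and 0.0929 CPM on 4-OHT (10 counts). The groups separated in the first pair and overlapped in the second. The pooled log2 fold change of 1.79 (95% interval 0.31 to 3.27) did not pass (adjusted p = 0.298). It did with the within-group axis as a covariate (2.11, adjusted p = 0.0156), which is not separate support.

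ETV5, its close relative, had 5.28, 5.68 and 5.15 CPM on erdafitinib, against 3.66, 2.88 and 5.26 CPM on vehicle, and these overlapped. It had 3.55, 3.81 and 4.02 CPM on the combination, against 3.57, 1.75 and 4.04 CPM on 4-OHT. The pooled log2 fold change was 0.35 (95% interval -0.16 to 0.86; adjusted p = 0.664).

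The Sprouty and Spred genes lay close to 0. The pooled log2 fold change was 0.08 for SPRY2 (95% interval -0.22 to 0.39), 0.10 for SPRED1 (-0.28 to 0.48) and -0.03 for SPRED2 (-0.26 to 0.21). Those of SPRY4 (-0.24, 95% interval -0.75 to 0.26) and SPRY1 (-0.46, -1.10 to 0.18) were lower and rested on 1 library. In TR 4-OHT 2, SPRY4 stood at 7.13 CPM, against 2.95 to 4.08 CPM in the other 11 TR libraries, and without it the pooled value was -0.03 for SPRY4 and -0.07 for SPRY1. The same library had the lowest DUSP6 and the lowest ETV5 level of the TR set (1.75 CPM each), and at 24.2% its mitochondrial share was the highest among TR libraries.

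**Figure D4:**
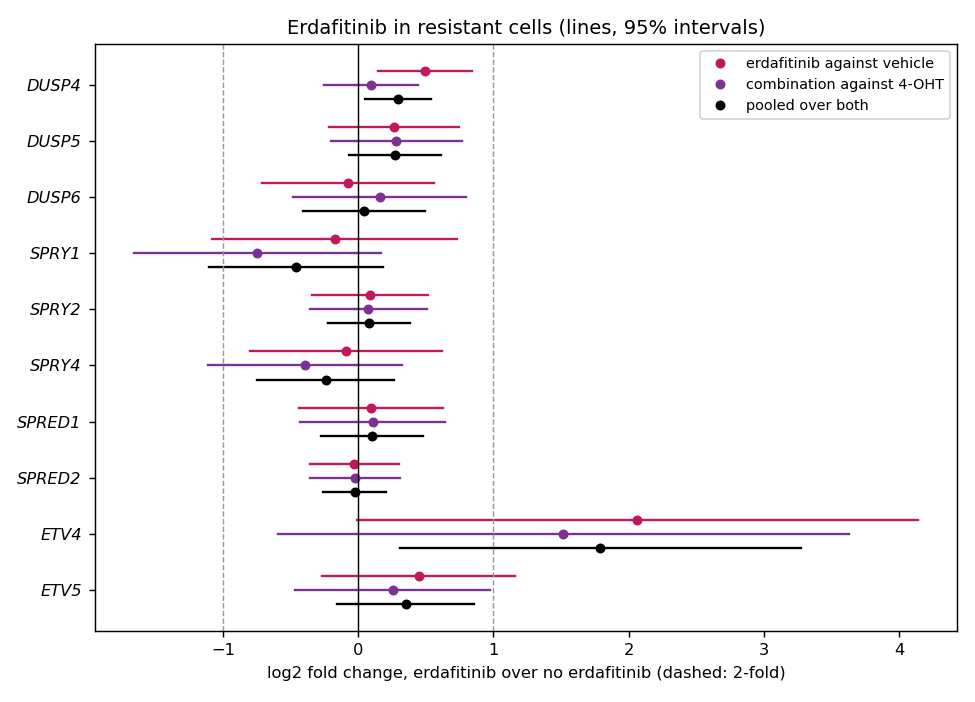
Log2 fold change of the 10 ERK feedback genes with erdafitinib over without it in resistant cells, against vehicle (pink), on top of 4-OHT (purple) and pooled (black), with unadjusted 95% intervals; dashed lines mark a 2-fold change. The estimates of SPRY2, SPRED1 and SPRED2 lie between -0.03 and 0.11 in all 3, and those of ETV4 are the largest and least certain.

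4-OHT was compared with vehicle in resistant cells, which is re-exposure against withdrawal of the drug the line was grown in. None of the 10 genes passed (0% of all genes were called). Of the 10, 0 had an unadjusted p under 0.05, against 127 of all 16210 genes. DESeq2 called 0 of the 10 and 0 of 16208 genes. The groups overlapped for each of the 10, while 3.65% of all genes did not overlap. The estimates ran from -0.31 for ETV5 to 0.65 for SPRY1 on the log2 scale, and the SPRY1 value was -0.12 without TR 4-OHT 2. DUSP6 averaged 3.10 ± 1.17 CPM on 4-OHT and 3.40 ± 0.330 CPM on vehicle (SD, n = 3 each), and SPRED2 averaged 32.5 ± 0.990 CPM on 4-OHT and 32.7 ± 2.16 CPM on vehicle.

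The combination was also set against erdafitinib alone. Again 0 of 10 genes passed (0% of all genes; 0 of the 10 had an unadjusted p under 0.05 and DESeq2 called 0). ETV5 was the gene whose groups did not overlap, at 3.55, 3.81 and 4.02 CPM on the combination, against 5.28, 5.68 and 5.15 CPM on erdafitinib, a separation seen in 5.36% of all genes. Its log2 fold change of -0.50 (SE 0.33) did not pass (adjusted p = 1). The test of whether the erdafitinib effect differed with and without 4-OHT called 0 of 10 (0% of all genes). Its lowest unadjusted p was 0.102 for DUSP4 (difference in log2 fold change -0.40, SE 0.23). DESeq2 called 0 of 10 in that test, against 1 of 16208 genes.

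Other genes of the pathway were examined as lists to place the 10 genes. Upstream, FGFR1 stood at 62.9 ± 21.5 CPM in TR vehicle and 6.94 ± 1.49 CPM in PAR vehicle, and 3 of 5 FGF receptor genes rose in resistant cells (FGFR1, FGFR2 and FGFR4) and 0 fell, against 19.9% of all genes higher and 16% lower. Pooled over both pairs, FGFR2 was lower with erdafitinib and stood at 59.0 ± 5.20 CPM with the drug and 98.0 ± 12.7 CPM without it (SD, n = 6 each; log2 fold change -0.73, SE 0.10; adjusted p = 0.00171). FGFR2 was the single FGF receptor gene called there.

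Between receptor and RAS, 3 of 10 adaptor and activator genes rose in resistant cells and 2 fell, against 19.9% and 16% of all genes. GAB2, which encodes a docking protein, fell by 2.79 on the log2 scale (31.0 ± 9.06 CPM in TR vehicle, 214 ± 41.7 CPM in PAR vehicle). The adaptor gene SHC1 (log2 fold change 1.49), the phosphatase gene PTPN11 (0.84), whose product SHP2 promotes RAS activation, and the phospholipase gene PLCG1 (1.45) rose.

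Of 13 other brakes on the cascade 5 rose and 1 fell, against 19.9% and 16% of all genes. NF1, which encodes neurofibromin, the partner of the Spred proteins, rose by 1.05 (SE 0.30; adjusted p = 0.0149; 242 ± 97.3 CPM in TR vehicle, 117 ± 41.0 CPM in PAR vehicle). ERRFI1, an inhibitor of the EGF receptor, rose by 1.03. IL17RD, also called SEF, an inhibitor of FGF signalling, rose too (4.27 ± 0.489 CPM in TR vehicle, 1.66 ± 0.985 CPM in PAR vehicle; adjusted p = 0.0116). The ubiquitin ligase gene CBLB fell by 1.75 on the log2 scale. Of the 3 remaining Sprouty, Spred and PEA3 relatives, SPRY3 rose by 1.70 (7.16 ± 2.31 CPM in TR vehicle, 2.20 ± 0.783 CPM in PAR vehicle) and SPRED3 by 1.55 (7.74 ± 1.63 CPM in TR vehicle, 2.61 ± 0.937 CPM in PAR vehicle), while ETV1 did not pass.

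Of 9 other dual-specificity phosphatase genes tested, 4 were higher in resistant cells and 2 lower, against 19.9% and 16% of all genes. DUSP16 (1.39), DUSP10 (1.20) and DUSP3 (0.70), the first and second of which act mainly on JNK and p38, rose. DUSP1, an immediate early phosphatase gene, fell by 3.07 on the log2 scale (3.13 ± 0.521 CPM in TR vehicle, 26.3 ± 10.4 CPM in PAR vehicle). Of 15 other genes that ERK activity raises in many cell types, 6 rose and 4 fell, against 19.9% and 16% of all genes. PHLDA1 rose by 2.38 on the log2 scale. EPHA4 fell by 4.29 and KLF4 fell by 3.98. FOS, the immediate early transcription factor gene, averaged 0.256 ± 0.111 CPM in TR vehicle and 84.3 ± 26.7 CPM in PAR vehicle. Under pooled erdafitinib 1 of these 15 was called: IER2, an immediate early gene, stood at 19.6 ± 2.18 CPM with the drug and 28.6 ± 3.65 CPM without it (SD, n = 6 each; log2 fold change -0.55, SE 0.13; adjusted p = 0.0428). No gene of the adaptor, core cascade, brake, other phosphatase or relatives lists was called there (medians -0.04, -0.11, -0.10, -0.25 and -0.25). The median of the 15 was -0.21, against 0.09 for the 10 feedback genes and -0.01 for all genes.

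**Figure D5:**
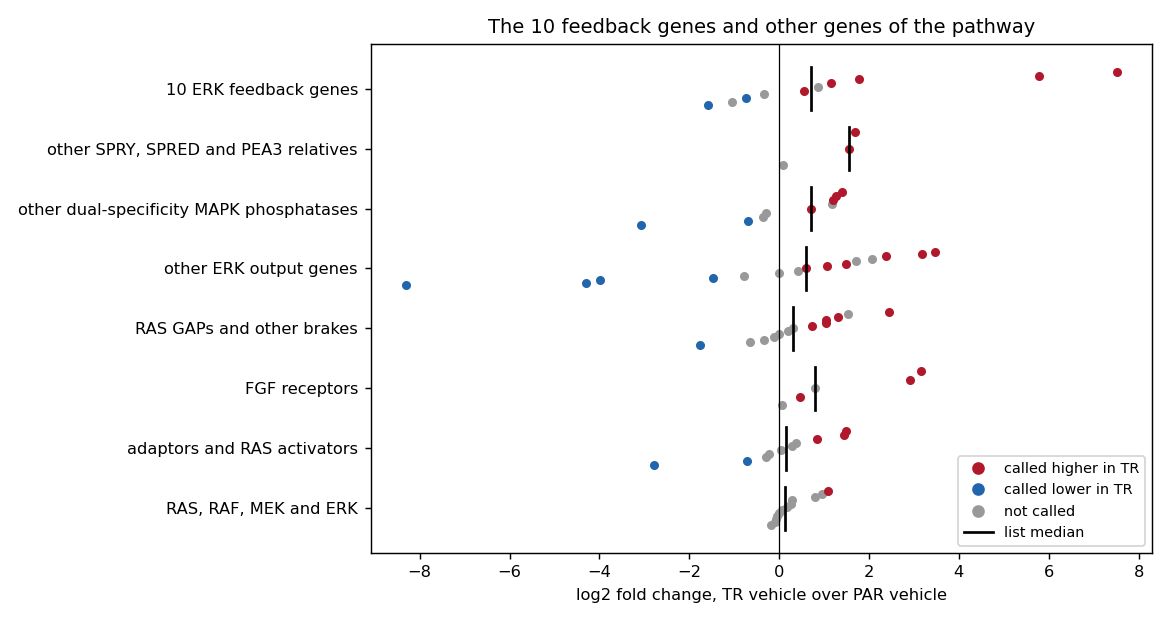
Log2 fold change of TR vehicle over PAR vehicle for the 10 ERK feedback genes and 7 lists of other genes of the pathway (1 point per tested gene, black bars are list medians); the 3 feedback genes near 0 in PAR are drawn at their bound or count ratio. Risers and fallers occur side by side in the feedback genes (median 0.70), the other phosphatases (0.70) and the other ERK output genes (0.60).

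Genes with the most similar profiles were sought for 1 member of each of 3 families among 10140 protein-coding genes, by Pearson correlation of log2 CPM over the 15 libraries, which mostly records the step between the lines. For DUSP6 they were FSIP1 (0.970), ZNF385B (0.967) and SEMA6A (0.966), and over the 12 TR libraries alone these correlations were 0.848, 0.797 and 0.817. For SPRY4 they were VAT1L (0.995), PITRM1 (0.994) and MBP (0.993), with 0.700, 0.687 and 0.625 over the TR libraries. For ETV5 they were TRPV3 (0.990), PELI2 (0.990) and TBX3 (0.988), with 0.752, 0.621 and 0.815. Libraries of both lines also differ in depth and composition, and TR 4-OHT 2 stands apart for all 3 members, so the values are a description.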

How the data were processed

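Per the submitters' processing notes, HISAT2 2.1.0 placed the reads on GRCh38. The authors deposited raw counts of read pairs for each gene of Ensembl release 104, which featureCounts 2.0.1 made in paired, reverse-stranded mode, per the file headers (version 1.4.6-p1 in the processing notes). Trimming is not given in the sources used here. Symbols were matched for 60463 of 60664 IDs. The low-count filter filterByExpr left 16210 genes, and TMM factors ran from 0.907 to 1.10. A single quasi-likelihood model in edgeR 4.0.16 (R 4.3.3) held the 15 libraries, with 10 residual degrees of freedom, a mean per group and no block. Calls used a Benjamini-Hochberg adjusted p under 0.05 over all genes. Standard errors were the absolute log2 fold change over the square root of F. Genes with 0 counts in a group were set against 3 counts over the group. Intervals on counts cover counting error only. Within groups no library copied another, with chi-square values per gene of 7.42 to 148. Pairs of libraries from different groups were not compared in this way.

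The feedback genes and lists were chosen with earlier results of these data known. From the lists, up to 4 called genes with the smallest p were named; 1 result of these lists is not reported here. The comparisons on vehicle share TR vehicle, and those involving the combination share it. Alternatives were DESeq2 1.42.0 (size factors; Wald test), other filters, only the groups compared, a replicate block, thinned counts, the first principal component of the group-centred log2 CPM (49.5% of within-group variance) as a covariate, a test against a 1.5-fold change, and leaving out libraries. The edgeR procedure was tested on simulated counts.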

Additional observations from a re-analysis of the deposited data

How the results depend on the processing

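Of 1837 values recomputed under alternatives, none reversed a called direction. Between resistant and parental cells the number of feedback genes called was 7, from 7 to 8 without 1 library, 8 without the 2 shallowest libraries and 5 to 10 otherwise. The 10 came with the within-group axis as a covariate, which called 8887 of all 16210 genes and is not separate support. Single-gene calls were not tallied under the test against a 1.5-fold change, which the range of 5 to 10 includes. Under the other alternatives 4 single-gene calls were lost, 3 for DUSP5 and 1 for SPRED2. Over all comparisons 11 were gained, 6 of them for SPRY1. Under erdafitinib the within-group axis as a covariate called 1 gene alone and 2 genes pooled, against 0 and 0. The axis was computed from the same libraries and takes up their within-group spread, so these calls are not separate support. What the axis reflects was not tested. No library left out gave a call under erdafitinib (0 to 0). Over all 16210 genes, resistant against parental cells gave 5817 calls, 3297 against a 1.5-fold change and 8887 with the axis. It gave 4695 to 6266 without 1 library, and 5628 of 16740 genes without the 2 shallowest libraries. Erdafitinib alone gave 15 calls, 0 with only the groups compared, 277 with the axis and 2 to 19 without 1 library (2 without TR vehicle 3 or TR erdafitinib 3). Erdafitinib on 4-OHT gave 33 calls against a 1.5-fold change, 746 with the axis and 45 (without TR combination 3) to 137 (without TR vehicle 1) without 1 library. The pooled comparison gave 278, 45 against a 1.5-fold change and 1715 with the axis, and 140 to 445 without 1 library. Where edgeR called 0 genes, DESeq2 called 18 (combination against erdafitinib) and 1 (interaction). Same-numbered libraries of compared groups correlated from -0.828 to 0.619 on group-centred log2 CPM. With so few libraries per group, this cannot decide whether replicate numbers pair the libraries. With the replicate block 7 feedback genes were called between the lines, against 5551 of all 16210 genes, and 0 in every other comparison. Over all genes the block gave 9 calls for erdafitinib alone, 76 on 4-OHT and 186 pooled, and 0 in the remaining comparisons. ETV4 had no value under alternatives that filtered it out or gave no test. SPRY4, ETV4 and ETV5 had 0, 0 and 1 counts in PAR, so depth sets what can be said of their folds.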
